A study of Mus musculus with 9 samples.

Results

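Heart muscle genes were followed in RNA sequencing data of mouse aorta. The 36 genes are a fixed list of symbols of known heart muscle genes, chosen with results of these data in view, and they were matched by symbol to Ensembl gene IDs. All 36 were found among the 37668 genes of the deposited table, and all 36 were among the 14225 genes that reached 1 FPKM or more in at least 1 group. FPKM is a fragment count divided by transcript length and by the fragments mapped, which scales for both without making groups fully comparable: the sums and the length trend given below differ between groups.

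The 9 libraries were made from aortas of male mice aged 90 days, of the background 129T2SvEmsJ:C57Blk/6J, in 3 groups of 3. All groups carried the floxed allele of Agtr1a (labelled AT1ar floxed), the gene of the angiotensin II type 1a receptor; floxed means flanked by sites that Cre recombinase cuts. In the Cdh5Cre group a Cdh5-Cre transgene was added, in which a promoter used by endothelial cells drives Cre. In the Sm22Cre group an Sm22-Cre transgene was added, driven by the promoter of Tagln (SM22), a smooth muscle gene. The floxed group had no Cre. As background, the SM22 promoter is known to be active for a time in the heart muscle of the mouse embryo, and its part in the values below was not tested. The series title names Marfan syndrome, while the labels give the receptor allele and the Cre transgene. The sources used here give neither the stretch of aorta that was taken nor any trimming of heart tissue, so the aortic root cannot be named as the origin of these transcripts.

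The table gives 1 FPKM value for each gene and group, with the 3 libraries of a group already combined by the authors. The spread between libraries and the sequencing depth are unknown. No test was therefore possible, nothing below has a replicate check, and each difference describes these group values alone. The values summed to 607860 FPKM in Cdh5Cre, 500015 in Sm22Cre and 495724 in floxed aortas. Agtr1a itself was at 1.32 FPKM in Cdh5Cre, 1.21 in Sm22Cre and 1.75 in floxed aortas, a low level in all 3 groups.

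Heart muscle cells contract through sarcomeres, in which myosin thick filaments pull on actin thin filaments anchored at Z-discs. Calcium released from the sarcoplasmic reticulum starts each contraction by binding to troponin on the thin filament. In the mouse the atria and the ventricles use different myosin light chains, and heart muscle also extends as sleeves onto the large veins near the heart. The transcription factors Nkx2-5, Gata4 and Tbx5 act together in forming the heart and in switching on many of these genes.

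Promoter sequences are shown for 4 members that stand for the chambers compared below: the atrial genes Myl7 and Nppa, the ventricular gene Myl3, and Tnni3, which serves both chambers. They are taken from RefSeq on build GRCm38.p6 and run from 250 bases before to 50 bases after the annotated start, 5′ to 3′ on the gene's strand. The Myl7 window is chr11:5898733-5899032 (minus strand), the Nppa window chr4:148000472-148000771 (plus strand), the Myl3 window chr9:110763428-110763727 (plus strand) and the Tnni3 window chr7:4522479-4522778 (minus strand). Capitals mark matches, on either strand, to GATAA (a sequence bound by GATA factors), to AAGTG (bound by Nkx2-5), to CATTCC (bound by TEAD factors), to the CArG box of serum response factor and the MEF2 box.
Myl7: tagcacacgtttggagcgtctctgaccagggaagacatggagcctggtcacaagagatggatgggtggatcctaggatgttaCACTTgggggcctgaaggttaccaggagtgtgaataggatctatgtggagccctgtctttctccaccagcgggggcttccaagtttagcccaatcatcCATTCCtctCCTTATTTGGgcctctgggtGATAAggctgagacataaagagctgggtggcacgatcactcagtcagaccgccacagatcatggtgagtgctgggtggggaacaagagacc
Nppa: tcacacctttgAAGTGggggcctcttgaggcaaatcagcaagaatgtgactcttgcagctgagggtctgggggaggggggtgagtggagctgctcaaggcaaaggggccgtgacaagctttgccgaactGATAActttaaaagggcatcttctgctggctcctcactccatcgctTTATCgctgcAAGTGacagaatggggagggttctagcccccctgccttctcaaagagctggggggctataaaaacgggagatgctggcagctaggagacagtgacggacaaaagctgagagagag
Myl3: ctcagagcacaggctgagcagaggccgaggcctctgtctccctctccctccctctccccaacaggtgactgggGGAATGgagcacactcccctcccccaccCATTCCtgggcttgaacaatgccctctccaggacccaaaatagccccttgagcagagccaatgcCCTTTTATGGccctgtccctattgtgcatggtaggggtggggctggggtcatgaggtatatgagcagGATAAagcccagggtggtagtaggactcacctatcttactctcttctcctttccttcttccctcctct
Tnni3: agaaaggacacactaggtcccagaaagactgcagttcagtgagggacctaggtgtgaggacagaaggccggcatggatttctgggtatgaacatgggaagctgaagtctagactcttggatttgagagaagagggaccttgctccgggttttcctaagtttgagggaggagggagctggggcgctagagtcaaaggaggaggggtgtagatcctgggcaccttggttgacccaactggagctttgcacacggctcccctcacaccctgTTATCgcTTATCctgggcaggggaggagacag

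The Myl7 window held 1 match to GATAA, 1 to AAGTG, 1 to CATTCC and 1 to the CArG box. The Nppa window held 2 matches to GATAA and 2 to AAGTG. The Myl3 window held 2 matches to CATTCC, 1 to GATAA and 1 to the CArG box, and the Tnni3 window 2 to GATAA. No matches overlapped in these 4 windows. RefSeq windows were found for 30 of the 36 members, 37 windows in all; Tbx5, Tcap, Trdn, Gata4, Sln and Cox6a2 had none in the table. Of the 37 windows, 35.1% held GATAA, against 25.4% of all 32851 mouse windows of the same length. AAGTG was found in 54.1% of the members' windows and 46.4% of all windows, and CATTCC in 24.3% and 14.7%. The CArG box was found in 13.5% of the members' windows and 1.63% of all windows. In the members these were 5 windows of 4 genes (Actc1, Ldb3, Myl3 and Myl7). The MEF2 box was found in 10.8% and 3.19%, in the members 4 windows of 4 genes (Casq2, Mybpc3, Myoz2 and Ttn). A gene with several windows counts once for each, so these percentages rest on few genes. These matches are a description of the letters in these windows.

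**Figure D1:**
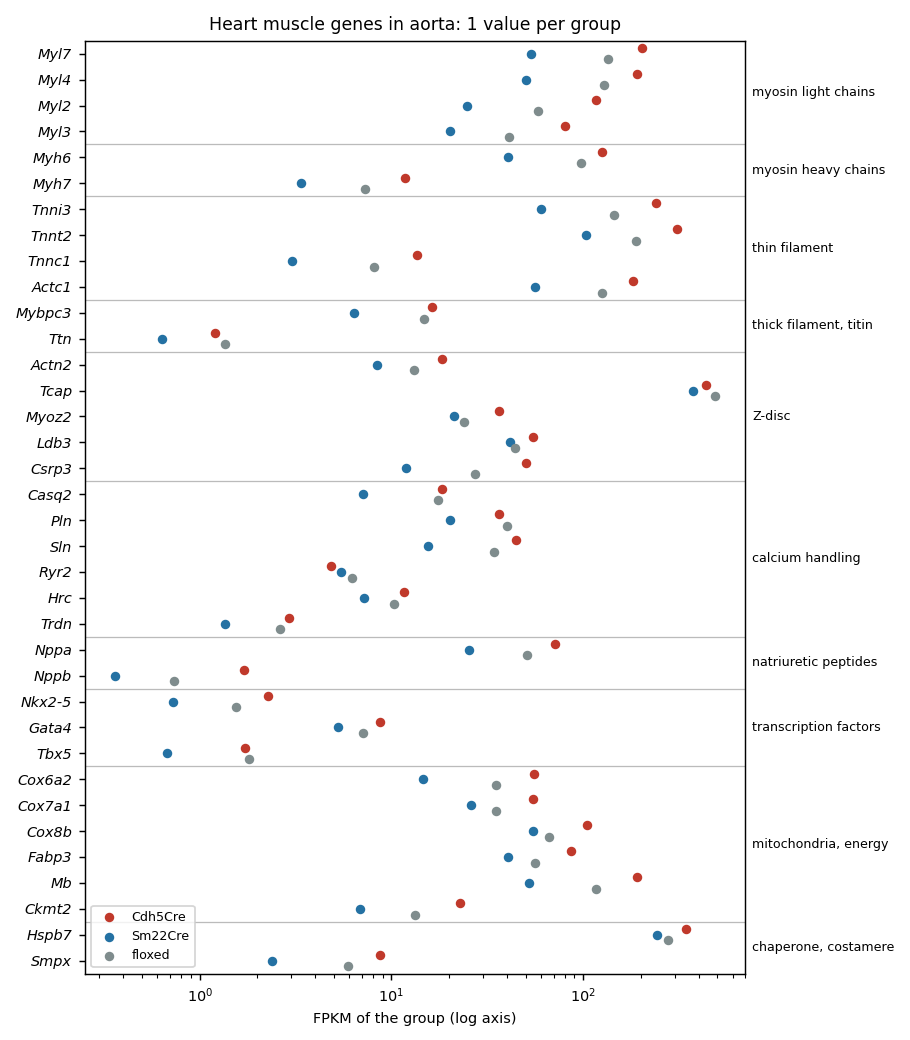
FPKM of the 36 heart muscle genes (rows, grouped by role) on a log axis, with 1 point for each group: Cdh5Cre red, Sm22Cre blue, floxed grey. All 36 Sm22Cre values lie below the floxed values, and 31 of the 36 Cdh5Cre values lie above them.

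Heart muscle transcripts were measurable in every group and spanned a wide range. Together the 36 genes took 0.52% of the FPKM sum in Cdh5Cre, 0.28% in Sm22Cre and 0.47% in floxed aortas. Tcap and Hspb7 held 436 and 343 of the members' 3156 FPKM in Cdh5Cre. They held 375 and 243 of 1411 FPKM in Sm22Cre, and 489 and 278 of 2327 FPKM in floxed aortas. At 100 FPKM or more stood 11 members in Cdh5Cre, 3 in Sm22Cre and 8 in floxed aortas. Below 10 FPKM stood 8 members in Cdh5Cre, 15 in Sm22Cre and 10 in floxed aortas. The highest member in every group was Tcap, which encodes the Z-disc protein telethonin and titin cap. It was at 436 FPKM in Cdh5Cre, 375 in Sm22Cre and 489 in floxed aortas, and the lowest member in Cdh5Cre was Ttn at 1.21 FPKM, while Nppb was lowest in Sm22Cre (0.36) and floxed aortas (0.73). For comparison, Myh11, the smooth muscle myosin heavy chain gene, was at 1142 FPKM in Cdh5Cre, 1267 in Sm22Cre and 1341 in floxed aortas. Acta2, a major smooth muscle transcript, is listed at 0 in all groups with a status that marks too many fragments, and was not analysed. In whole tissue, fewer heart muscle cells and less heart muscle RNA per cell cannot be told apart.

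All 36 genes were lower in Sm22Cre than in floxed aortas, and most were higher in Cdh5Cre. A gene was counted as different when its ratio on the log2(FPKM + 1) scale, which understates differences of low genes, reached 2-fold. The members were chosen with these ratios known, so their counts are a description. In Sm22Cre against floxed, 14 of 36 members were lower by 2-fold or more and 0 higher, where 0.33% of all 14225 genes were lower and 0.302% higher. The median log2 ratio was -0.89, with the members between -1.34 (Myl4) and -0.08 (Ldb3), against a median of 0.01 over all genes. In Cdh5Cre against floxed, 31 of 36 members were higher and 5 lower, with a median of 0.51 against 0.02 over all genes. None of the 36 reached 2-fold in either direction there, where 1.19% of all genes were higher and 0.703% lower, and 14 members were higher by 1.5-fold, as were 8.33% of all genes. With the trend on transcript length and GC content described next removed, 2 members were higher and 1 lower by 1.5-fold. The share of all genes was not computed with the trend removed, so these counts have no background beside them. In Sm22Cre against Cdh5Cre, 22 of 36 members were lower by 2-fold or more and 0 higher, where 1.23% of all genes were lower and 0.401% higher, and the median was -1.24. At 1.5-fold, 31 members were lower there, as were 7.57% of all genes. The third comparison uses the same group values as the first 2 and adds no independent observation.

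**Figure D2:**
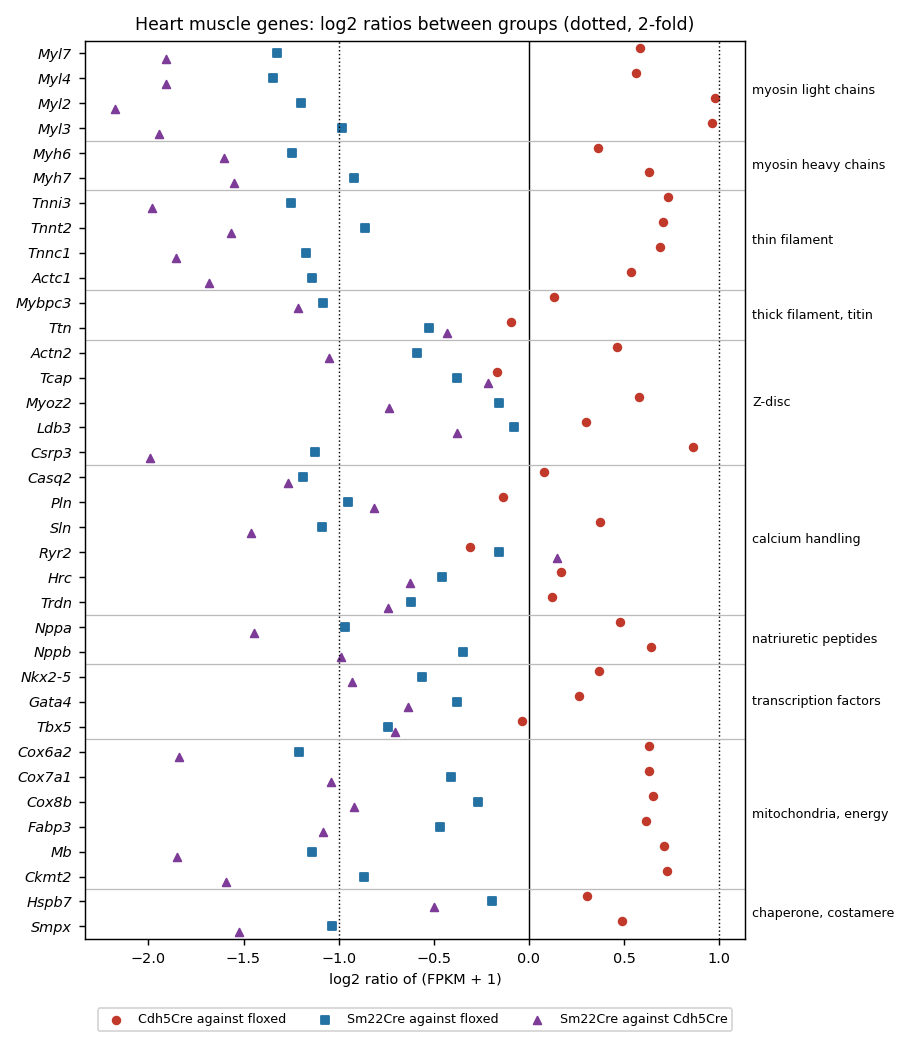
Log2 ratios of (FPKM + 1) for each heart muscle gene in Cdh5Cre against floxed (red circles), Sm22Cre against floxed (blue squares) and Sm22Cre against Cdh5Cre (purple triangles), with 2-fold marked by dotted lines. The blue squares run from -1.34 to -0.08, and no red circle reaches 1.

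The size of the difference in Cdh5Cre went with transcript length and GC content. A curve fitted on these properties over the 12317 genes with a protein-coding transcript held 45.8% of the variance of the log2 ratios of Cdh5Cre over floxed and 47.2% for Sm22Cre over Cdh5Cre, but 4.19% for Sm22Cre over floxed. With that trend removed, the members' median was 0.13 for Cdh5Cre over floxed, -0.89 for Sm22Cre over floxed and -1.12 for Sm22Cre over Cdh5Cre. Against floxed, 7 members changed sign in Cdh5Cre when the trend was removed (Myl7, Ttn, Pln, Ryr2, Nppa, Nkx2-5 and Tbx5), and none did in Sm22Cre. The median of the myosin light chains was then 0.26 in place of 0.77 and that of the factors 0.01 in place of 0.26; 32 of 36 were then above 0 in Cdh5Cre.

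The myosin light chains, which bind the neck of the myosin head, had the lowest ratios of all roles in Sm22Cre against floxed. Myl7 (ENSMUSG00000020469, mm9 chromosome 11, 5796640 to 5798785), the regulatory light chain of the atria, was at 202 FPKM in Cdh5Cre, 53.2 in Sm22Cre and 135 in floxed aortas. Myl4, the essential light chain of the atria, stood at 191 FPKM in Cdh5Cre, 50.2 in Sm22Cre and 129 in floxed aortas. Both were highest in Cdh5Cre and lowest in Sm22Cre. The quotient of Myl7 over Myl4 was nearly the same throughout, at 1.06 in Cdh5Cre, 1.06 in Sm22Cre and 1.04 in floxed aortas. Myl2 (ENSMUSG00000013936, mm9 chromosome 5, 122550960 to 122588966), the regulatory light chain of the ventricles, was at 116 FPKM in Cdh5Cre, 24.9 in Sm22Cre and 58.2 in floxed aortas. Myl3, the essential light chain of the ventricles and of slow skeletal muscle, stood at 80.7 FPKM in Cdh5Cre, 20.2 in Sm22Cre and 40.9 in floxed aortas. By plain FPKM, Myl2 was 1.99-fold and Myl3 1.97-fold higher in Cdh5Cre than in floxed aortas, and Myl4 1.48-fold higher.

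Atrial and ventricular members were set against each other as groups. The atrial members are Myl7, Myl4, Sln and Nppa, and the ventricular members Myl2, Myl3 and Myh7. In Cdh5Cre against floxed the median log2 ratio was 0.52 for the atrial and 0.96 for the ventricular members, a difference of -0.44. The ratios of the 4 atrial members (0.37 to 0.58) and of the 3 ventricular members (0.63 to 0.98) did not overlap. These members were chosen with results of these data in view, so this is a description. All 3 ventricular members and the atrial Myl4 carried the status FAIL in this comparison, so no ventricular value with status OK stands behind the difference. With the length and GC trend removed the medians were 0.02 and 0.60, a difference of -0.58. With the trend removed, Sln (0.20) remained below Myl3 (0.45), and Myl7 (-0.01) and Nppa (-0.05) were slightly below 0. Outside the members, 5 measured atrial genes had ratios of -0.52 to 0.56 in Cdh5Cre against floxed as deposited, with a median of 0.15. The 2 measured ventricular genes, Hey2 (-0.30) and Lrrc10 (0.73), had a median of 0.21. These ranges overlapped, so these other genes did not show the split of the members. With the trend removed their medians were 0.12 (atrial) and 0.04 (ventricular).

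In Sm22Cre against floxed the atrial members had the lower ratios: the atrial median was -1.21 and the ventricular median -0.98, a difference of -0.22. Here the ranges overlapped, since Nppa (-0.97) lay between Myh7 (-0.92) and Myl3 (-0.98). The measured atrial and ventricular genes outside the members had medians of -0.12 and -0.13 in Sm22Cre against floxed. By plain FPKM the atrial members were 1.99-fold to 2.57-fold lower in Sm22Cre and the ventricular members 2.03-fold to 2.34-fold lower. In Sm22Cre against Cdh5Cre the medians were -1.68 and -1.95, a difference of 0.26.

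Within a group, ventricular and atrial light chain genes were set against each other as quotients of FPKM. Whether these quotients follow the share of atrial and ventricular tissue was not tested. They were not computed with the length and GC trend removed. Myl2 over Myl7 was 0.57 in Cdh5Cre, 0.47 in Sm22Cre and 0.43 in floxed aortas. Myl3 over Myl4 was 0.42 in Cdh5Cre, 0.40 in Sm22Cre and 0.32 in floxed aortas. In all 3 groups the atrial light chain of each pair had the higher FPKM, and both quotients were lowest in floxed aortas. Myl4 had a failed estimate status in every pair of groups, and Myl4 and Myl2 shared their listed loci with other genes, which limits both quotients.

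**Figure D3:**
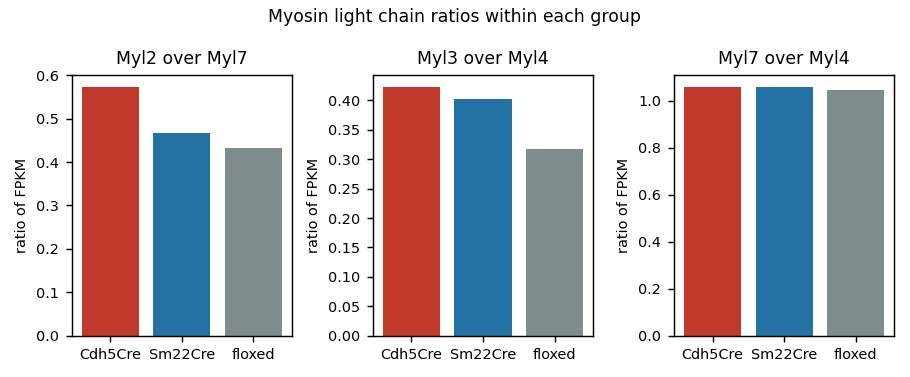
Quotients of FPKM of myosin light chain genes within each group (1 bar per group, axes from 0): the ventricular over the atrial regulatory chain (Myl2 over Myl7), the ventricular over the atrial essential chain (Myl3 over Myl4), and the 2 atrial chains (Myl7 over Myl4). The first 2 are highest in Cdh5Cre, at 0.57 and 0.42, and the last lies between 1.04 and 1.06.

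The myosin heavy chains followed the light chains. Myh6, the alpha heavy chain that drives contraction in the adult mouse heart, was at 125 FPKM in Cdh5Cre, 40.5 in Sm22Cre and 97.3 in floxed aortas. Myh7, the beta heavy chain of the embryonic ventricle and of slow skeletal muscle, was at 11.8 FPKM in Cdh5Cre, 3.36 in Sm22Cre and 7.25 in floxed aortas. Myh6 exceeded Myh7 by 10.6-fold in Cdh5Cre, 12.0-fold in Sm22Cre and 13.4-fold in floxed aortas. The 2 genes lie next to each other, and 15.5% of the 75-base windows of the Myh6 transcript occur in Myh7, so part of their reads could have been divided between them.

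The thin filament genes were lower in Sm22Cre as a group, with a median log2 ratio of -1.16 against floxed, and higher in Cdh5Cre, with a median of 0.69 that was 0.22 with the length and GC trend removed. Tnni3, the inhibitory subunit of cardiac troponin, was at 241 FPKM in Cdh5Cre, 60.2 in Sm22Cre and 145 in floxed aortas. Tnnt2, the subunit that binds tropomyosin, was the most abundant of the troponin genes, at 309 FPKM in Cdh5Cre, 104 in Sm22Cre and 189 in floxed aortas. It was 1.83-fold lower in Sm22Cre than in floxed aortas, while Tnni3 was 2.40-fold lower and Tnnc1, the subunit that binds calcium, 2.66-fold lower. Tnnc1 was low at 13.6 FPKM in Cdh5Cre, 3.04 in Sm22Cre and 8.09 in floxed aortas, and Tnni3 exceeded it by 17.7-fold in Cdh5Cre, 19.8-fold in Sm22Cre and 17.9-fold in floxed aortas. Actc1, cardiac alpha-actin, was at 182 FPKM in Cdh5Cre, 56.2 in Sm22Cre and 125 in floxed aortas, and no 75-base window of its transcript occurred in another actin gene. Tnni3 and Tnnt2 had a failed status in every pair of groups.

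Of the thick filament and titin genes, Mybpc3, cardiac myosin-binding protein C, was at 16.2 FPKM in Cdh5Cre, 6.41 in Sm22Cre and 14.7 in floxed aortas. It was 2.30-fold lower in Sm22Cre than in floxed aortas, and 1.10-fold higher in Cdh5Cre. Ttn, the giant spring of the sarcomere, was at 1.21 FPKM in Cdh5Cre, 0.64 in Sm22Cre and 1.35 in floxed aortas, 2.13-fold lower in Sm22Cre by plain FPKM. On the log2(FPKM + 1) scale its ratio was only -0.52, because the value is low.

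Z-disc genes differed among themselves. Csrp3, the muscle LIM protein, stood at 50.4 FPKM in Cdh5Cre, 11.9 in Sm22Cre and 27.2 in floxed aortas, a pattern like that of the light chains. Actn2, the alpha-actinin that crosslinks thin filaments in heart and skeletal muscle, stood at 18.4 FPKM in Cdh5Cre, 8.38 in Sm22Cre and 13.1 in floxed aortas, 1.57-fold lower in Sm22Cre than in floxed aortas. Tcap, Myoz2 and Ldb3 differed less between Sm22Cre and floxed aortas. Myoz2, which encodes the calcineurin-binding protein calsarcin-1, was at 36.2 FPKM in Cdh5Cre, 21.3 in Sm22Cre and 23.9 in floxed aortas. Ldb3, which encodes the PDZ and LIM domain protein ZASP, was at 54.5 FPKM in Cdh5Cre, 41.7 in Sm22Cre and 44.2 in floxed aortas. Tcap, the most abundant member, had log2 ratios of -0.17 in Cdh5Cre and -0.38 in Sm22Cre, each against floxed. With the length and GC trend removed they were -0.81 and -0.40, and Tcap was then the lowest member in Cdh5Cre against floxed. As a quotient, Tcap over Tnni3 was 1.81 in Cdh5Cre, 6.24 in Sm22Cre and 3.38 in floxed aortas.

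The genes of calcium handling had a median log2 ratio of -0.78 in Sm22Cre and 0.10 in Cdh5Cre, each against floxed. Casq2, the calcium store protein calsequestrin, was at 18.4 FPKM in Cdh5Cre, 7.08 in Sm22Cre and 17.4 in floxed aortas, so that Cdh5Cre and floxed were close and Sm22Cre stood apart. Pln, phospholamban, which restrains the calcium pump, was at 36.5 FPKM in Cdh5Cre, 20.3 in Sm22Cre and 40.2 in floxed aortas. Sln, sarcolipin, which restrains the same pump and in the mouse heart is mainly atrial, was at 44.5 FPKM in Cdh5Cre, 15.5 in Sm22Cre and 34.2 in floxed aortas. The calcium release channel gene Ryr2 had another order of groups: at 4.83 FPKM in Cdh5Cre, 5.46 in Sm22Cre and 6.22 in floxed aortas, it was the only member higher in Sm22Cre than in Cdh5Cre. With the length and GC trend removed it was lower there (-0.15), and Tcap was higher (0.42). Hrc and Trdn, which encode calcium-binding and anchoring proteins of the sarcoplasmic reticulum, were 1.42-fold and 1.93-fold lower in Sm22Cre than in floxed aortas.

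The natriuretic peptide gene Nppa (ENSMUSG00000041616, mm9 chromosome 4, 147374831 to 147378123), in the adult a hormone gene of the atria, was at 71.2 FPKM in Cdh5Cre, 25.5 in Sm22Cre and 50.8 in floxed aortas. Nppb, whose peptide is released by stretched heart muscle, was at 1.70 FPKM in Cdh5Cre, 0.36 in Sm22Cre and 0.73 in floxed aortas. By plain FPKM, Nppb was 2.33-fold higher in Cdh5Cre than in floxed aortas, and its log2 ratio of (FPKM + 1) was 0.64. It reached 1 FPKM in Cdh5Cre alone, so it passed the filter only through the group where it was highest. Its fold at this low level is therefore a description without weight. Both peptide genes were about 2-fold lower in Sm22Cre than in floxed aortas, by 1.99-fold and 2.02-fold.

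The transcription factor genes stood below most sarcomere genes in level. Nkx2-5 (ENSMUSG00000015579, mm9 chromosome 17, 26975609 to 26978510), a homeobox factor of the heart, was at 2.28 FPKM in Cdh5Cre, 0.72 in Sm22Cre and 1.54 in floxed aortas. Tbx5, a T-box factor, was at 1.73 FPKM in Cdh5Cre, 0.68 in Sm22Cre and 1.80 in floxed aortas. Gata4, a zinc finger factor, was at 8.71 FPKM in Cdh5Cre, 5.24 in Sm22Cre and 7.11 in floxed aortas. In each of the 3 genes Sm22Cre was the lowest group, but Tbx5 was slightly lower in Cdh5Cre than in floxed aortas while Nkx2-5 and Gata4 were higher. With the length and GC trend removed Nkx2-5 and Tbx5 changed sign in Cdh5Cre against floxed, and with equal group medians Tbx5 did.

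Whether the factors differed less than the sarcomere genes depended on how low values were handled. In Sm22Cre against floxed, the median log2 ratio was -0.56 for the 3 factors and -1.08 for the 17 sarcomere genes, a difference of 0.52. With a pseudocount of 0.1 in place of 1, this difference was 0.16, with Nkx2-5 at -0.995, Tbx5 at -1.29 and Gata4 at -0.43. By plain FPKM the factors were 2.13-fold (Nkx2-5), 2.66-fold (Tbx5) and 1.36-fold (Gata4) lower in Sm22Cre, and the sarcomere genes had a median of 2.23-fold lower, within 1.06-fold to 2.66-fold. Nkx2-5 lay near the sarcomere median, Tbx5 beside Tnnc1 at the far end of the sarcomere range, and Gata4 among the less different genes. Gata4 had a failed status in every pair of groups, as had Myl4, Tnni3, Tnnt2, Ttn, Actn2, Ldb3, Hrc and Mb. In Cdh5Cre against floxed the medians were 0.26 for the factors and 0.58 for the sarcomere genes. In Sm22Cre against Cdh5Cre they were -0.70 and -1.60, and the difference of 0.90 was 0.46 with the smaller pseudocount.

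**Figure D4:**
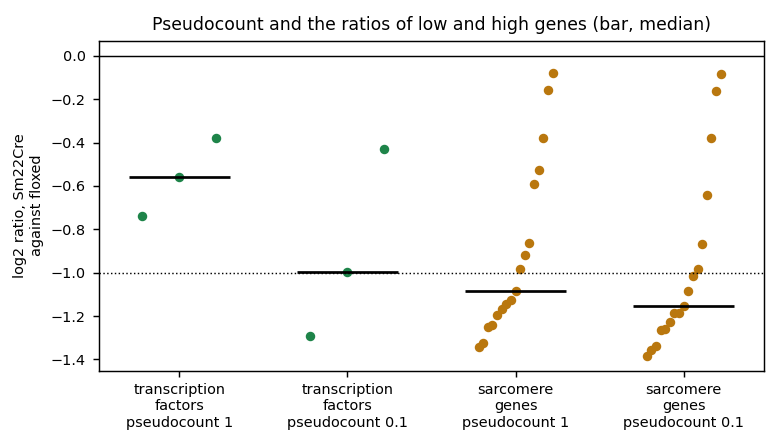
Log2 ratios in Sm22Cre against floxed for the 3 transcription factor genes (green) and 17 sarcomere genes (orange), with a pseudocount of 1 and of 0.1 FPKM, each point a gene and each bar a median. The factors' median is -0.56 with the first and -0.995 with the second, while that of the sarcomere genes is -1.08 with the first and lies at Actc1, -1.16, with the second.

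Mitochondrial and energy genes were all higher in Cdh5Cre, by log2 ratios of 0.62 to 0.72, and ranged from -1.21 to -0.27 in Sm22Cre, each against floxed. With the length and GC trend removed their ratios in Cdh5Cre were 0.009 to 0.48, with a median of 0.10 in place of 0.64. Cox6a2, the muscle form of a cytochrome oxidase subunit, was at 55.0 FPKM in Cdh5Cre, 14.7 in Sm22Cre and 35.1 in floxed aortas. Mb, the oxygen store myoglobin, was at 191 FPKM in Cdh5Cre, 52.1 in Sm22Cre and 116 in floxed aortas, and the mitochondrial creatine kinase gene Ckmt2 at 22.7 FPKM in Cdh5Cre, 6.84 in Sm22Cre and 13.3 in floxed aortas. These 3 genes were 2.40-fold, 2.23-fold and 1.95-fold lower in Sm22Cre than in floxed aortas. Cox7a1 and Cox8b, muscle forms of other cytochrome oxidase subunits, and Fabp3, a fatty acid carrier, are also expressed in brown fat and were 1.34-fold, 1.21-fold and 1.39-fold lower. The brown fat gene Ucp1 was at 67.4 FPKM in Cdh5Cre, 62.0 in Sm22Cre and 63.8 in floxed aortas, so that brown fat transcripts were present in all 3 groups. Part of the Fabp3 transcript (24.3% of its 75-base windows) also occurs in the pseudogene Fabp3-ps1.

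The muscle forms of cytochrome oxidase subunits can be set against the general forms, which most tissues use. Cox6a2 over Cox6a1 was 0.11 in Cdh5Cre, 0.04 in Sm22Cre and 0.09 in floxed aortas. Cox7a1 over Cox7a2 was 0.51 in Cdh5Cre, 0.32 in Sm22Cre and 0.44 in floxed aortas. Cox8b over Cox8a was 0.28 in Cdh5Cre, 0.21 in Sm22Cre and 0.26 in floxed aortas. In all 3 pairs the quotient was lowest in Sm22Cre, and the general forms themselves differed from floxed by log2 ratios of -0.01 to 0.05 in Sm22Cre and 0.44 to 0.57 in Cdh5Cre.

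Of the remaining members, Smpx, a small protein of the costamere, which ties the sarcomere to the cell membrane, was at 8.74 FPKM in Cdh5Cre, 2.39 in Sm22Cre and 5.95 in floxed aortas. Hspb7, a small heat shock protein of heart and vessel muscle, was at 343 FPKM in Cdh5Cre, 243 in Sm22Cre and 278 in floxed aortas. Smpx was 2.49-fold lower in Sm22Cre than in floxed aortas and Hspb7 1.14-fold lower.

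By plain FPKM, 20 of the 36 members were 2-fold or more lower in Sm22Cre than in floxed aortas, where 0.879% of all genes analysed were. They were 2.02-fold to 2.66-fold lower, the near end being set by the 2-fold rule itself, and over all 36 members the range was 1.06-fold to 2.66-fold lower. Levels of the 20 in floxed aortas ran from 0.73 to 145 FPKM. A second set of 10 members was less than 1.5-fold lower: Tcap, Myoz2, Ldb3, Ryr2, Hrc, Gata4, Cox7a1, Cox8b, Fabp3 and Hspb7. The remaining 6 (Tnnt2, Actn2, Pln, Trdn, Nppa and Ckmt2) lay between, at 1.57-fold to 1.99-fold lower. In Cdh5Cre against floxed, the same 20 members had folds of 0.89 to 2.33 with a median of 1.49, and the 10 had a median of 1.24.

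Other heart muscle genes outside the 36 had median ratios nearer 0 in the values as deposited. Of 21 measured genes of the sarcomere and the intercalated disc, 20 were lower in Sm22Cre than in floxed aortas, 0 of them by 2-fold and 8 by 1.5-fold, where 0.921% of all genes were, with a median log2 ratio of -0.54. Myom2, a protein of the M-band, was at 7.98 FPKM in Cdh5Cre, 3.67 in Sm22Cre and 7.70 in floxed aortas. Ankrd1, a stress-responsive protein of heart muscle, was at 49.1 FPKM in Cdh5Cre, 15.8 in Sm22Cre and 23.6 in floxed aortas. Des, Cryab, Flnc and Tpm1, which smooth muscle also expresses, differed from floxed by log2 ratios of -0.07 to -0.04 in Sm22Cre. In Cdh5Cre against floxed the list had a median of 0.25. With the length and GC trend removed it was 0.27, above the 0.13 of the 36 members.

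The 21 measured genes of excitation and calcium transport had medians of -0.18 in Sm22Cre and -0.08 in Cdh5Cre, each against floxed. Kcnj3 and Kcnj5, which form the potassium channel opened by acetylcholine in the atria, were low: Kcnj3 was at 1.32 FPKM in Cdh5Cre, 0.86 in Sm22Cre and 2.33 in floxed aortas, and Kcnj5 at 1.41 FPKM in Cdh5Cre, 0.76 in Sm22Cre and 2.01 in floxed aortas. The sodium-calcium exchanger gene Slc8a1 was at 9.64 FPKM in Cdh5Cre, 22.1 in Sm22Cre and 22.1 in floxed aortas, with Cdh5Cre the lowest group, as for Ryr2 among the members. Of 14 other measured heart transcription factors, 0 differed by 2-fold on the log2(FPKM + 1) scale in either comparison with floxed. Their medians were -0.08 in Sm22Cre and -0.11 in Cdh5Cre. Myocd is counted both in this list and in the smooth muscle markers below. Which cells of the aorta the values of this list come from was not tested. Gata5 was at 1.11 FPKM in Cdh5Cre, 0.56 in Sm22Cre and 1.15 in floxed aortas (2.07-fold lower in Sm22Cre than in floxed aortas by plain FPKM), and Hand2 at 16.7 FPKM in Cdh5Cre, 9.11 in Sm22Cre and 9.78 in floxed aortas. Irx4, a factor of the ventricles, and Bmp10, a growth factor of the atria, were below 1 FPKM in all groups, with Bmp10 listed at 0. In the energy list of 19 measured genes, Pgam2 (22.6 FPKM in Cdh5Cre, 6.53 in Sm22Cre and 13.9 in floxed aortas) and the muscle creatine kinase gene Ckm (31.0 FPKM in Cdh5Cre, 7.19 in Sm22Cre and 14.3 in floxed aortas) stood apart from a median of -0.12 in Sm22Cre against floxed.

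**Figure D5:**
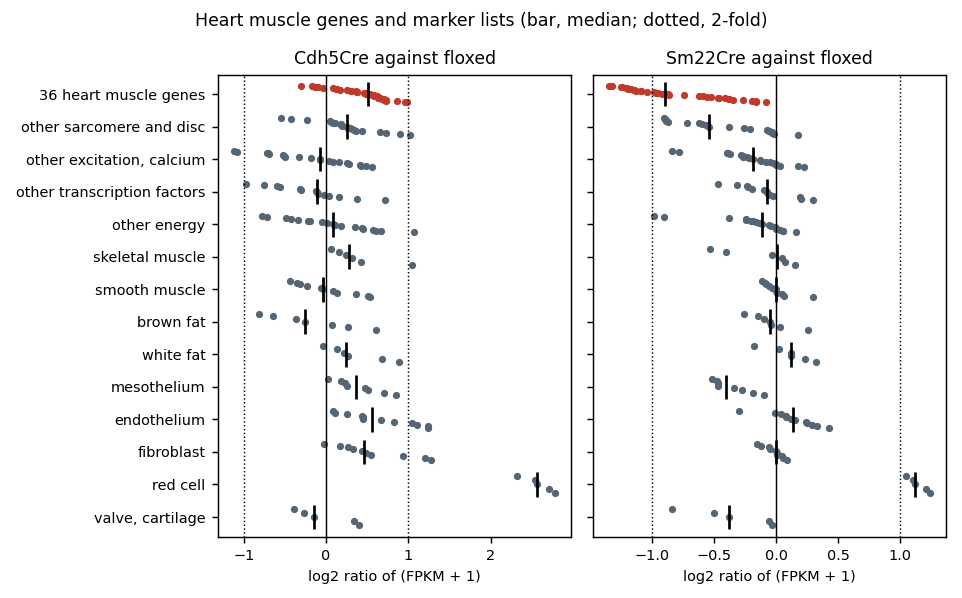
Log2 ratios of (FPKM + 1) in Cdh5Cre against floxed (left) and Sm22Cre against floxed (right) for the 36 heart muscle genes (red) and for other gene lists (grey), each point a gene at 1 FPKM or more and each bar a median. In the right panel the heart muscle genes have the lowest median, -0.89, followed by other sarcomere and disc genes at -0.54.

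Markers of other cells were measured beside the members. The fast skeletal myosin genes Myh1, Myh2 and Myh4 stood below 0.1 FPKM in every group. Of 16 skeletal muscle markers 6 reached 1 FPKM, with medians of 0.28 in Cdh5Cre (6 of 6 above 0) and 0.01 in Sm22Cre against floxed. Among them Myl1, a fast light chain, was at 20.8 FPKM in Cdh5Cre, 7.01 in Sm22Cre and 9.60 in floxed aortas, and Acta1, skeletal alpha-actin, at 5.58 FPKM in Cdh5Cre, 2.41 in Sm22Cre and 3.92 in floxed aortas, both with the order of groups of most members. The locus listed for Acta1 is that of 159 genes, which limits its values. Casq1, the skeletal calsequestrin, was at 72.7 FPKM in Cdh5Cre, 72.3 in Sm22Cre and 69.9 in floxed aortas. Smooth muscle markers (11 of 12 measured) had medians of -0.04 in Cdh5Cre and -0.003 in Sm22Cre against floxed. Brown fat markers (7 of 7) had medians of -0.26 in Cdh5Cre and -0.05 in Sm22Cre, and white fat markers (6 of 7) 0.24 and 0.12. All 8 mesothelial markers were lower in Sm22Cre (median -0.40) and higher in Cdh5Cre (median 0.36) than in floxed aortas, with summed levels of 57.9 FPKM in Cdh5Cre, 32.2 in Sm22Cre and 42.3 in floxed aortas. Cartilage and valve markers, of which 5 of 6 reached 1 FPKM, had a median of -0.14 in Cdh5Cre and -0.38 in Sm22Cre, with Chad at 30.5 FPKM in Cdh5Cre, 20.2 in Sm22Cre and 37.0 in floxed aortas. Endothelial and fibroblast markers had medians of 0.56 and 0.46 in Cdh5Cre and of 0.14 and 0.00 in Sm22Cre. Globin genes took 4.18% of the FPKM sum in Cdh5Cre, 1.80% in Sm22Cre and 0.81% in floxed aortas, so that Sm22Cre lay above floxed for blood and below it for heart muscle. With the length and GC trend removed, the median in Cdh5Cre against floxed was -0.07 for skeletal muscle markers. It was 0.21 for mesothelial and 0.03 for valve and cartilage markers. Smooth muscle markers then had a median of -0.12, brown fat markers -0.37 and white fat markers 0.08. Endothelial and fibroblast markers kept most of their difference, with medians of 0.52 (12 of 12 above 0) and 0.46 (10 of 10 above 0). Both medians were above the 0.13 of the 36 members. The part of any of these tissues in the members' values was not tested.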

How the data were processed

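Each deposited value is an FPKM that the authors computed for a whole group, per the file headers, so that the 3 libraries of a group are combined and no value per library was used. The submitters' processing notes list Cufflinks 1.3.0, TopHat2 2.0.8, SAMtools 0.1.7 and Bowtie2 2.1.0, on build mm9; the sources used here name no annotation. Per the labels' protocols, poly-A RNA gave stranded libraries read as pairs.

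The table has 113004 rows, 37668 Ensembl genes in 3 pairs of groups. Sm22Cre and floxed values were read from their own pair, and Cdh5Cre from its pair with Sm22Cre. Symbols and transcript lengths came from GENCODE M21, on another build. Listed starts were taken as counted from 0, since 13791 loci then match a GENCODE gene length exactly, against 336 otherwise. Genes with 1 FPKM or more in 1 group were kept, and 7 with status HIDATA (too many fragments) were removed. Status FAIL was kept. It was listed for 38.9%, 30.6% and 33.3% of the members in Cdh5Cre against floxed, Sm22Cre against floxed and Sm22Cre against Cdh5Cre, and for 27.7%, 23.8% and 27.4% of all genes. Of the members, 15 shared their listed locus with another gene.

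Ratios were computed on log2(FPKM + 1), and printed folds are plain ratios of FPKM. The trend on length and GC content was a spline fit over 12317 genes with a protein-coding transcript (scikit-learn 1.9.0, Python 3.11.15). The calculations were tested on simulated data. Members, lists and sets were chosen with earlier results of these data known. Named genes are the 36 members, the 2 genes of each other list with the largest ratios, defining markers, the genes that check the labels, and 15 genes outside the lists chosen by ratio. One gene that this rule names is not reported here. Others named, and the quotients and motifs, were chosen after their values were seen.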

Additional observations from a re-analysis of the deposited data

How the results depend on the processing

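No paired analysis was possible because the table holds group values alone and the groups share no replicate numbers, and for the same reason no replicate was left out. Of 218 values recomputed under 10 settings, 173 kept their direction and stayed within 1.5 times. Part of these could not have moved, so the total is no measure of robustness. All 36 members pass the filter, so leaving it out cannot change their values. Equal medians shift all genes of a comparison alike and cannot change a difference between 2 sets. Counts of 0 that stayed 0 are also among the 173. All 36 members stayed below 0 in Sm22Cre against floxed under quantile normalization, with equal group medians and with the trend removed. A change of pseudocount cannot change a sign. Equal medians moved this comparison little, with an all-gene median of 0.0050 as deposited and 0.0045 after scaling. The cause was not tested for the values below, other than fewer genes or a lower threshold.

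Among the 36 members, the count lower by 2-fold in Sm22Cre against floxed was 9 of the 25 with status OK. It was 6 among members with a locus of their own (median -0.59), a setting that leaves out 15 members. At 1.5-fold it was 23, where 0.921% of all genes were lower. Shares over all genes were not computed for status OK or for a locus of their own. In Sm22Cre against Cdh5Cre the count lower was 14 of the 24 with status OK, and 10 with a locus of their own. In Cdh5Cre against floxed the count higher was 1 with a pseudocount of 0.1, 2 with equal group medians and 14 at 1.5-fold, and the median was 0.13 with the trend removed. The atrial minus ventricular difference was -0.14 (Sm22Cre against floxed) and 0.72 (Sm22Cre against Cdh5Cre) with status OK, where Myl2 alone was left as a ventricular member in the second; no ventricular member was left in Cdh5Cre against floxed. It was -0.12 in Sm22Cre against floxed without the 3 members that share 75-base windows with another gene, a setting chosen after seeing the data. The difference between factors and sarcomere genes was 0.16 and 0.46 with a pseudocount of 0.1 in these 2 comparisons, and -0.15 in Cdh5Cre against floxed under quantile normalization.

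For the other heart muscle lists together, the median in Cdh5Cre against floxed was 0.06. It was 0.0889 with a pseudocount of 0.1, 0.0171 without a filter, 0.0318 with the filter at 5 FPKM, 0.088 with status OK, 0.10 with equal medians and 0.11 with a locus of their own. It turned to -0.0198 under quantile normalization and to -0.0429 with the trend removed. With the filter at 5 FPKM the medians were -0.0852 for Sm22Cre over floxed and -0.13 for Sm22Cre over Cdh5Cre. Their counts in Cdh5Cre against floxed, 2 higher and 2 lower, were 1 higher under quantile normalization, 0 and 0 with the trend removed, 0 lower with status OK, 1 higher and 0 lower with a locus of their own, and 8 higher and 10 lower at 1.5-fold. In Sm22Cre against floxed, with 0 in each direction, 9 were lower with a pseudocount of 0.1, 1 with the trend removed and 12 at 1.5-fold. In Sm22Cre against Cdh5Cre, with 1 higher and 4 lower, 12 were lower with a pseudocount of 0.1, 7 with equal medians, 2 with a locus of their own and 17 at 1.5-fold, while 0 were higher with status OK, with the trend removed or with a locus of their own, and 9 at 1.5-fold. The depth is unknown, so the precision of low members such as Nkx2-5, Tbx5, Nppb and Ttn cannot be given.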

Other observations

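Outside all lists, 15 protein-coding genes at 5 FPKM or more in Cdh5Cre had the lowest log2 ratios in Sm22Cre against floxed among genes that were higher in Cdh5Cre than in floxed aortas. They were chosen by these ratios, which are therefore a description. Several are known from heart muscle. Mybphl, which encodes a myosin-binding protein of the atria, was at 9.45 FPKM in Cdh5Cre, 2.61 in Sm22Cre and 6.13 in floxed aortas. Hopx, a homeodomain protein of the developing heart, was at 6.64 FPKM in Cdh5Cre, 3.51 in Sm22Cre and 5.90 in floxed aortas, and Adprhl1, a heart protein related to ADP-ribosylhydrolases, at 9.91 FPKM in Cdh5Cre, 3.22 in Sm22Cre and 5.81 in floxed aortas. Eef1a2, the elongation factor form of muscle and nerve, was at 18.2 FPKM in Cdh5Cre, 6.11 in Sm22Cre and 12.8 in floxed aortas. Hamp, the gene of the iron hormone hepcidin, which the heart also expresses, was at 11.8 FPKM in Cdh5Cre, 2.44 in Sm22Cre and 6.05 in floxed aortas. Art1, which encodes a mono-ADP-ribosyltransferase of muscle, had the lowest ratio, at 5.83 FPKM in Cdh5Cre, 0.96 in Sm22Cre and 3.24 in floxed aortas (3.37-fold lower in Sm22Cre than in floxed aortas).

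The others of the 15 were Ank1 (14.6 FPKM in Cdh5Cre, 5.76 in Sm22Cre and 13.1 in floxed aortas), the mitochondrial leucyl-tRNA synthetase gene Lars2 (364 FPKM in Cdh5Cre, 81.9 in Sm22Cre and 137 in floxed aortas), Apobec2, Cish, Ccn1, Got1, Timp1, Nr4a1 and Nrtn. Their log2 ratios in Sm22Cre against floxed lay between -1.06 for Ank1 and -0.43 for Nr4a1 and Nrtn.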
